A study of Chlorocebus aethiops vervet with 14 samples.

Results

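FABP4, REC8, CDKN2A, TENT5A, DAPK1 and CSRP2 are 6 genes, of 14132 named on the array, that are better known from tissues other than the visual thalamus and read higher in parvocellular than in magnocellular captures of the vervet lateral geniculate nucleus. They were chosen by the measured difference between parvocellular and magnocellular arrays, so that difference is described below and not tested. Each is read through all probe sets of the Rhesus Macaque Genome Array that carry its symbol alone in the platform annotation. These are 11 probe sets of the 52766 outside the controls, 2 each for FABP4, DAPK1 and TENT5A, 3 for CDKN2A and 1 each for REC8 and CSRP2. Of the 11, 7 had enough signal to enter a test (a mean over the 12 rhesus arrays of at least 12.6), 1 for each gene and a second one for TENT5A. Of these 7, the FABP4 probe set and both of TENT5A reached that mean only through the parvocellular arrays, in which the genes were chosen to be high. The brightest probe set stands for each gene below unless another is named. On the human HG-U133 Plus 2.0 array the same symbols belong to 14 of 54613 probe sets.

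The study captured tissue by laser from normal adult male vervet monkeys, an African green monkey, and compared 4 groups of 3 arrays. M neurons and P neurons are cell bodies picked under a cresyl violet stain in the magnocellular and the parvocellular layers, and M layers and P layers are captures of the whole layer, with its glia, vessels and neuropil. No group received a treatment or carries an engineered allele. Each group came from 3 individual animals, the sources do not say whether the same animals supplied all 4, and the RNA of every sample went through double amplification. Another 2 arrays, of the human design, held magnocellular RNA.

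The lateral geniculate nucleus passes retinal signals on to the cortex. Large relay cells of the magnocellular layers respond to motion and low contrast, and the smaller cells of the parvocellular layers carry colour and fine detail. The 6 genes do not form one pathway. FABP4 is a cytosolic carrier of fatty acids known from adipocytes, macrophages and capillary endothelium. REC8 is the kleisin subunit of cohesin in meiosis. CDKN2A encodes the cell cycle inhibitors INK4A and ARF. TENT5A is a non-canonical poly(A) polymerase that lengthens the tails of messenger RNAs, DAPK1 a calmodulin-regulated kinase linked to cell death, and CSRP2 a LIM-domain protein of the actin cytoskeleton, best known from smooth muscle.

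Across the 12 rhesus arrays the median signal ran from 11.9 to 14.8, and log2 signals correlated at 0.969 to 0.983 within a group and at 0.943 to 0.977 between groups, over probe sets that are not independent. The signal is a linear MAS5 intensity, a background-adjusted summary of the probe pairs of a set, and low values carry large relative errors. An array reading under its own median is treated here as at the floor. In captured neurons against whole layers, 4 of 5 tested astrocyte markers were called lower, beside 5.21% of all named genes, and 2 of 5 neuronal markers were called higher, which is near the 24.3% of all named genes. Of the tested markers, 2 of 4 oligodendrocyte, 3 of 11 microglial and 4 of 9 endothelial ones were called lower, and 0 higher. MBP and CNP, the oligodendrocyte markers with the highest signals, were not called, at log2 differences of -0.19 and 0.02. Fluidics stations, as the instrument records number them, were not balanced over the groups. Station 3 ran all M neurons and P neuron array 1, station 4 ran the other P neuron arrays and M layer arrays 1 and 2, and station 5 ran M layer array 3 and all P layers.

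In captured neurons the 3 parvocellular arrays lay above the 3 magnocellular arrays for 6 of the 6 genes. In whole layers this held for 4 of 6, all but DAPK1 and CSRP2. Of the 10030 named genes tested, 5.36% had P arrays above M arrays in neurons, 3.35% in layers and 0.818% in both. Because the genes were chosen for this difference, their counts are not read against those shares. Differences below are P minus M on the scale of log2(signal + 16), with the standard error (SE) of 1 linear model over all 12 arrays, and they understate the change of dim probe sets. Levels are MAS5 signals with the standard deviation (SD) over the 3 arrays of a group. In a captured sample, fewer cells of a type and less RNA per cell cannot be told apart.

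**Figure D1:**
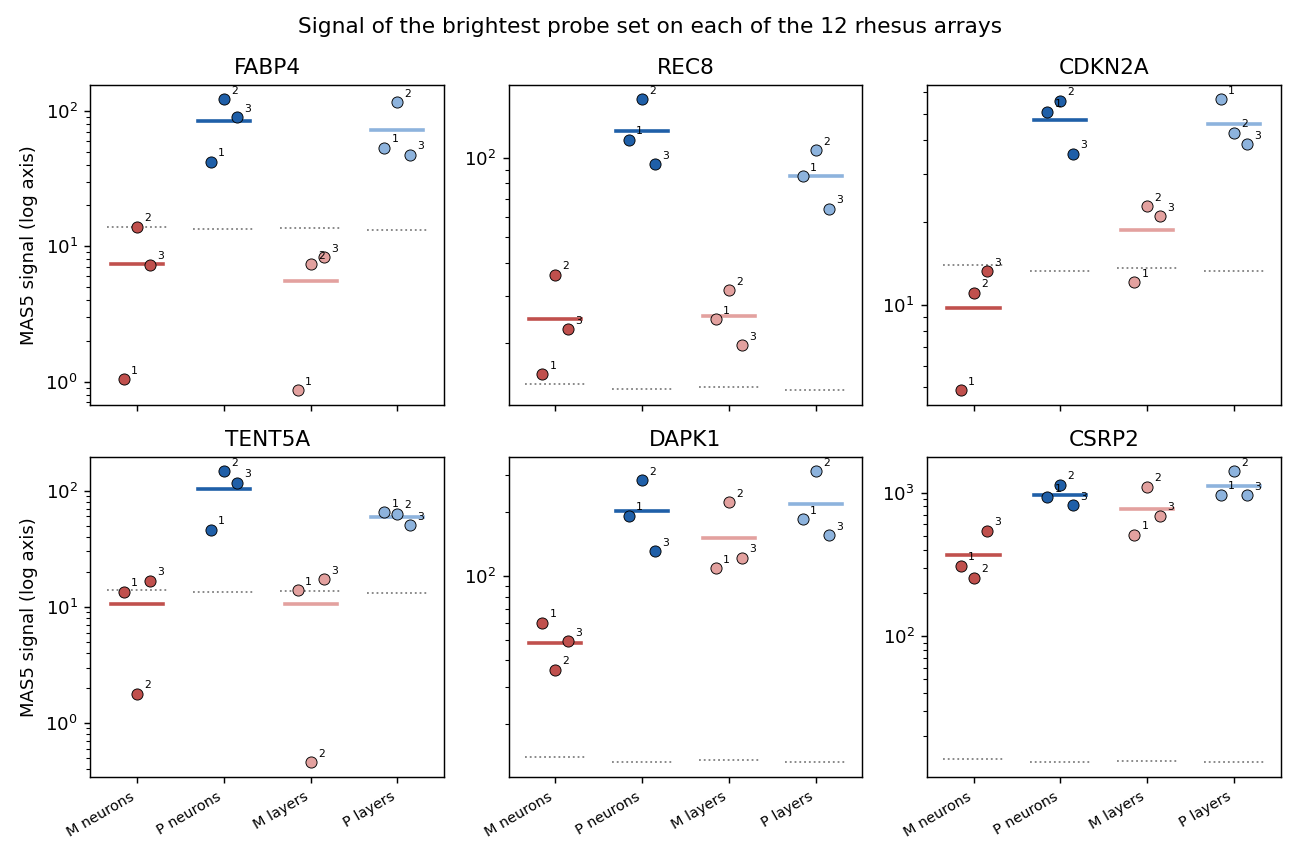
MAS5 signal (log axis) of the brightest probe set of each gene on each of the 12 rhesus arrays. Points are arrays with their replicate number, bars are group means, and dotted lines are the mean of the array medians in a group. P arrays lie above M arrays in every panel for neurons, and in layers in all but the panels of DAPK1 and CSRP2.

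FABP4 was near or under the floor in magnocellular tissue and clearly above it in parvocellular tissue. Its signal was 1.04, 13.9 and 7.32 on M neuron arrays 1 to 3, against 42.1, 121 and 89.6 on the P neuron arrays. M layers read 0.863, 7.35 and 8.28, and P layers 53.3, 116 and 47.5. The lowest parvocellular array of either capture was thus about 3-fold above the highest magnocellular one, M neuron array 2, and the groups did not overlap. The mean was 7.43 ± 6.44 in M neurons and 84.4 ± 39.9 in P neurons (SD, n = 3 each), a difference of 2.05 ± 0.31. In layers the means were 5.50 ± 4.04 and 72.4 ± 38.2, a difference of 1.98 ± 0.31. Since 2 of 3 M neuron arrays and 3 of 3 M layer arrays read under their array's median, the fold is better given as a bound. With magnocellular arrays raised to that median where they read below it, FABP4 was at least 5.38-fold higher in P neurons and at least 4.92-fold higher in P layers. The bound depends on the floor, and was 9.91 and 11.04 with the floor at the 25th percentile of each array and 1.44 and 1.38 at the 75th. The second FABP4 probe set was under the array median on every array. It read 3.96 to 12.8 in P neurons against at most 3.13 in M neurons, and its layer arrays overlapped.

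REC8 kept above the floor in every group. M neurons read 15.3, 36.1 and 22.5 and P neurons 117, 166 and 94.8. M layers read 24.5, 31.5 and 19.6 and P layers 85.1, 107 and 64.2. No parvocellular array came down to the magnocellular ones, and the 2 magnocellular groups shared one range. The mean was 24.6 ± 10.6 in M neurons and 126 ± 36.5 in P neurons (SD, n = 3 each), a ratio of 5.12 and a log2 difference of 1.81 ± 0.24. In layers it was 25.2 ± 6.02 and 85.4 ± 21.4, a ratio of 3.39 and a difference of 1.29 ± 0.24. No M array was under its median, and with the floor at the 75th percentile the fold was 2.29 in neurons and 1.74 in layers.

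CDKN2A was read by a probe set whose suffix marks probes shared by several transcripts. CDKN2B, its neighbour and near copy, was not measured here under a symbol of its own, and its RNA could add to the value. M neurons read 4.88, 11.1 and 13.3 and P neurons 50.7, 55.8 and 35.7. M layers read 12.1, 22.9 and 21.1 and P layers 56.3, 42.6 and 38.7. The parvocellular groups were alike in level, and the M neurons were all under their array medians while the M layers were not. The difference was 1.30 ± 0.22 in neurons, from 9.74 ± 4.35 to 47.4 ± 10.4, and 0.84 ± 0.22 in layers, from 18.7 ± 5.81 to 45.9 ± 9.24 (SD, n = 3 each). As a bound CDKN2A was at least 3.34-fold higher in P neurons, and in layers the ratio of means was 2.45. With the floor at the 75th percentile the value was 0.87 in neurons and 0.94 in layers, so no fold can be given at that floor. The other CDKN2A probe sets were under the array median on all 12 arrays and bear on neither transcript.

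TENT5A had a neuronal difference of 2.09 ± 0.32, within the SE of that of FABP4, and its P neuron arrays were spread. M neurons read 13.5, 1.79 and 16.7 and P neurons 45.9, 146 and 117. M layers read 13.9, 0.461 and 17.2 and P layers 65.4, 63.3 and 50.1. P neuron array 1, the only one that shared a station with the M neurons, was the lowest of its group, yet remained above every magnocellular array. The mean was 10.7 ± 7.85 in M neurons and 103 ± 51.4 in P neurons (SD, n = 3 each). In layers it was 10.5 ± 8.87 and 59.6 ± 8.29, a difference of 1.57 ± 0.32. Of the M arrays 2 of 3 in neurons and 1 of 3 in layers were under the median, which gives at least 6.27-fold and at least 3.93-fold, or 1.72 and 1.23 with the floor at the 75th percentile. The second TENT5A probe set ran the same way at lower levels. Its means were 6.89 in M neurons and 6.92 in M layers, against 24.1 in P neurons and 25.9 in P layers. It thus passed the signal filter only through the parvocellular groups, in which it was high. It read 7.70, 8.69 and 4.28 in M neurons, 9.17, 30.3 and 32.9 in P neurons, 3.27, 14.5 and 3.00 in M layers and 16.8, 30.3 and 30.6 in P layers. Its P arrays were above its M arrays in both captures, in neurons by the narrow margin of 9.17 over 8.69.

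DAPK1 arrays of P and M were apart in neurons and overlapped in whole layers, and that contrast between captures was not tested. M neurons read 60.3, 36.1 and 49.3 and P neurons 193, 282 and 131. M layers read 108, 222 and 122 and P layers 185, 311 and 156. The M layers reached into the parvocellular range through array 2, and the M neurons stood alone at the bottom. The difference was 1.71 ± 0.29 in neurons, from 48.6 ± 12.1 to 202 ± 76.3, a ratio of 4.16. It was 0.49 ± 0.29 in layers, from 151 ± 62.2 to 217 ± 82.3 (SD, n = 3 each), a ratio of 1.44. The layer difference was 0.78 without M layer array 2, 0.31 without M layer array 1 and 0.22 without P layer array 2. The second DAPK1 probe set was dim, at or under 11.9 on all 6 neuron arrays, and its neuron arrays overlapped with a difference of -0.13.

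CSRP2 followed the same course, with every array far above its median. M neurons read 309, 255 and 541 and P neurons 926, 1131 and 816. M layers read 507, 1102 and 688 and P layers 969, 1402 and 962. In layers the groups overlapped, again through M layer array 2. The difference was 1.40 ± 0.27 in neurons, from 368 ± 152 to 958 ± 160, and 0.58 ± 0.27 in layers, from 766 ± 305 to 1111 ± 252 (SD, n = 3 each). That difference was 0.87 without M layer array 2 and 0.32 without M layer array 1. The P layers lay above the M layers for 6 of the 6 genes without M layer array 2 and within station 5, and for 5 of 6 under quantile scaling and with a common trimmed mean. With fewer M layer arrays, as in station 5 with M layer array 3 alone, this is reached more easily. The share of all named genes was not counted under these settings, so the higher counts are not read as support.

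The order of the 4 group means fell into patterns. FABP4 and TENT5A ran from P neurons through P layers and M neurons to M layers. REC8 and CDKN2A had the same parvocellular order with M layers above M neurons. For these 4 genes only the step from the parvocellular to the magnocellular groups was free of overlap. DAPK1 and CSRP2 ran from P layers through P neurons and M layers to M neurons. For DAPK1 only M layers and M neurons were apart, and for CSRP2 all neighbours in the order overlapped. Within each replicate number P exceeded M in both captures for all 6 genes, with the smallest difference of 0.32 for DAPK1 in layers at number 3. This adds nothing where P and M arrays do not overlap, which leaves only DAPK1 and CSRP2 in layers. The labels state no pairing by number.

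Some values depended on the scale, the probe set and the station. With a pseudocount of 1 in place of 16 the neuronal difference was 3.63 for FABP4, 3.38 for TENT5A and 2.24 for CDKN2A, and with 64 it was 1.02, 1.11 and 0.59. CSRP2, far above any pseudocount, stayed between 1.28 and 1.44 over these and the other settings tried apart from leaving out arrays. Averaged over all probe sets of a gene, the neuronal difference was 0.79 for DAPK1, 0.48 for CDKN2A, 1.26 for FABP4 and 1.42 for TENT5A. Within station 3, which holds the M neurons and P neuron array 1, the difference was 1.35 for FABP4 and 1.26 for TENT5A. No setting of the model turned the direction of P minus M for any of the 6 genes, which were chosen for that direction. Alone, the second DAPK1 probe set had -0.13 in neurons, and another CDKN2A probe set had -0.05 in layers. The floor at the 75th percentile put the fold of CDKN2A at 0.87 in neurons and 0.94 in layers.

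**Figure D2:**
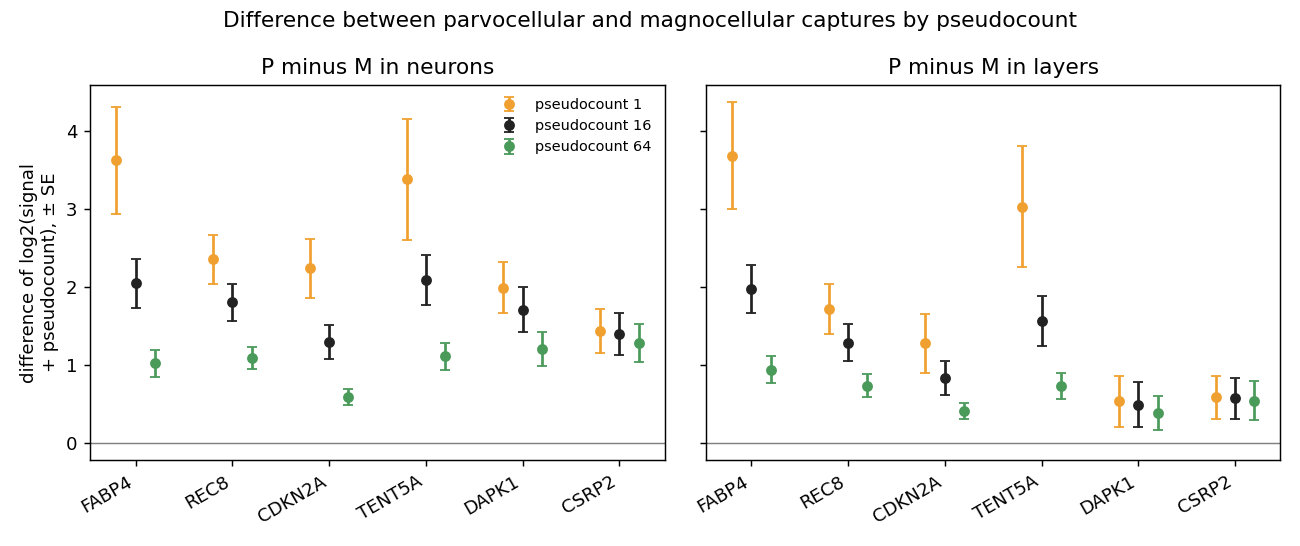
Difference P minus M of log2(signal + pseudocount), ± SE, in neurons (left) and layers (right), for pseudocounts of 1, 16 and 64. The dim genes FABP4 and TENT5A spread from 1.02 to 3.63 and from 1.11 to 3.38 in neurons, whereas CSRP2 hardly moves.

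Whether a gene's RNA sat in the captured cell bodies or elsewhere in the layer is a separate question. It was tested as neurons minus layers, averaged over M and P, a contrast that in this balanced design is uncorrelated with the differences that chose the genes, although it uses the same arrays and estimate of spread. Averaged in this way, DAPK1 and CSRP2 were lower in neurons than in layers, through the M captures, since within P the values were -0.10 ± 0.29 and -0.20 ± 0.27. The other 4 did not pass. DAPK1 differed by -0.71 ± 0.20 (95% interval -1.14 to -0.29, limma's adjusted p = 0.0146), and its mean signal was 125 in neurons and 184 in layers. CSRP2 differed by -0.61 ± 0.19 (-1.004 to -0.22, limma's adjusted p = 0.0216), with means of 663 and 938. Of all named genes 29.5% were called in this comparison, 24.3% higher and 5.21% lower in neurons, so 2 of 6 called is near the background. As deposited, lower in neurons was the less common direction, but after quantile scaling 1187 of 2451 calls and with a common trimmed mean 1327 of 2560 calls were lower. The median of all named genes was 0.17 toward neurons, and relative to it DAPK1 stood at -0.89 and CSRP2 at -0.79. The tested astrocyte markers had a median of -0.78 and the endothelial markers of -0.42 in the same comparison, and the part of those cells in the DAPK1 and CSRP2 values was not tested.

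For the other genes the intervals included 0. FABP4 and TENT5A entered this test only through the parvocellular groups, in which they were high. FABP4 differed by 0.14 ± 0.22 (-0.32 to 0.60, limma's adjusted p = 0.701) and REC8 by 0.22 ± 0.17 (-0.13 to 0.57, limma's adjusted p = 0.387). CDKN2A differed by -0.20 ± 0.15 (-0.52 to 0.12, limma's adjusted p = 0.385) and TENT5A by 0.28 ± 0.23 (-0.19 to 0.76, limma's adjusted p = 0.406). The interval was widest for TENT5A. The second TENT5A probe set gave -0.04 ± 0.19 (-0.44 to 0.36, limma's adjusted p = 0.919). With the fluidics station as a block, TENT5A stood at 1.502 ± 0.41 and FABP4 at 1.037 ± 0.44, above the intervals given for them. Neither was called (limma's adjusted p = 0.0535 and 0.192). REC8 and CDKN2A stayed within their intervals, at 0.077 and -0.177. The values of TENT5A and FABP4 thus depended on how the station was treated.

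Within one layer type, the DAPK1 and CSRP2 values were farther from 0 in magnocellular tissue. Within M, DAPK1 was at -1.33 ± 0.29 and CSRP2 at -1.02 ± 0.27. CDKN2A was at -0.43 ± 0.22 within M and 0.03 ± 0.22 within P. REC8 was at -0.04 ± 0.24 within M and 0.48 ± 0.24 within P, and TENT5A at 0.02 ± 0.32 and 0.55 ± 0.32. FABP4 was alike in both, at 0.10 ± 0.31 and 0.18 ± 0.31. These differences share arrays with the choice of the genes and were not tested. The calls of DAPK1 and CSRP2 ended with the fluidics station as a block, at -0.93 (adjusted p = 0.28) and -0.66 (adjusted p = 0.421). CSRP2 also lost its call without a signal filter (adjusted p = 0.0536) and when M neuron array 1 or 2, P neuron array 3, M layer array 2 or P layer array 2 was left out, with an adjusted p of at most 0.0679.

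**Figure D3:**
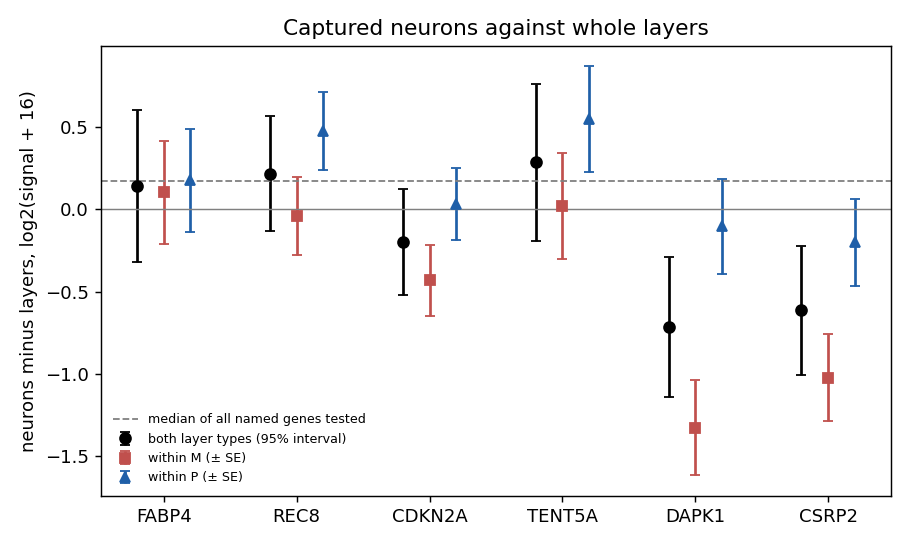
Neurons minus layers on the log2(signal + 16) scale for each gene, over both layer types (black, 95% interval) and within M and within P (± SE). The dashed line is the median of all named genes tested, at 0.17, and the black intervals of DAPK1 and CSRP2 lie below 0.

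The relatives of the 6 genes were followed to see whether whole families differed between M and P. The 8 lists, of families, complexes and pathways, hold 139 genes, of which 105 were measured and 74 tested. In neurons 1 of the 74 was called, 1.35%, against 0.339% of all named genes (0.199% higher and 0.14% lower in P). In layers 0 of 74 were called by limma, against 0.14% of all named genes (0.0698% in each direction). An unadjusted p under 0.05 was reached by 8 of the 74 in neurons and 5 in layers, beside 784 and 614 of the 10030 named genes. The median difference over the 74 genes was 0.05 in neurons and 0.06 in layers, beside -0.02 and -0.06 over all named genes.

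The called gene was FABP3, the heart-type fatty acid binding protein, which neurons also express. Its only probe set carries the same suffix as that of CDKN2A, which marks probes shared by several transcripts. Its signal was 137, 90.3 and 124 in M neurons and 241, 243 and 233 in P neurons. M layers read 76.1, 72.4 and 77.0 and P layers 102, 91.7 and 88.7. P arrays were above M arrays in both captures, and the neuron arrays above the layer arrays except for M neuron array 2, which lay in the range of the P layers. FABP3 rose by 0.95 ± 0.18 in P neurons (limma's adjusted p = 0.0207), and in layers the difference was 0.27 (adjusted p = 0.962). The difference between those effects was 0.68 and did not pass (adjusted p = 1). FABP3 was also higher in neurons than in layers, by 0.87 (limma's adjusted p = 7.9e-05), as were 24.3% of all named genes. FABP4 had 0.14 in that comparison and was not called, and the difference between FABP3 and FABP4 was not tested. The call of FABP3 between M and P neurons ended with the station as a block (adjusted p = 0.444), within station 3, with only the neuron groups fitted (0.12) and without M neuron array 2 (0.0872) or P neuron array 1 (0.0951), 2 (0.107) or 3 (0.0711).

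The rest of the fatty acid carriers gave no call. Of the 15 listed, 10 were measured and 5 tested, with a median of 0.29 in neurons and -0.30 in layers. FABP5, the epidermal form, had 0.49 in neurons and -0.47 in layers (adjusted p = 0.759 and 0.948). FABP1, FABP2 and FABP6, of liver and gut, fell below the signal filter. Of 16 genes of lipid droplets and fatty acid handling, 9 were tested and 0 called by limma, with 1 at an unadjusted p under 0.05 in each capture. PPARG, the nuclear receptor that drives FABP4 in adipocytes, had a difference of 0.86 in neurons (adjusted p = 0.264) from a mean signal of 9.94 to 30.3. In layers it had 0.37 (adjusted p = 0.968), from means of 3.60 in M and 9.89 in P. PPARG thus passed the signal filter only through the P neurons, the group in which it was high. ACSL6, an acyl-CoA synthetase of brain, had -0.21 in neurons and -0.37 in layers (adjusted p = 0.872 and 0.844).

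Around REC8, 12 of 20 genes of cohesin and its regulators were tested and 0 called by limma, 1 of them at an unadjusted p under 0.05 in neurons. The median was 0.16 in neurons and 0.12 in layers. STAG2, a core subunit of somatic cohesin, had 0.49 in neurons (adjusted p = 0.445), and RAD21, the mitotic counterpart of REC8, had 0.17 in neurons and 0.13 in layers (adjusted p = 0.903 and 0.994). Of 15 meiosis genes only 4 could be tested, and 0 were called by limma, with 0 at an unadjusted p under 0.05 in neurons and 1 in layers. MSH5, a meiotic mismatch repair protein, had 0.37 in neurons and 0.75 in layers (adjusted p = 0.851 and 0.722), and SYCP3, of the synaptonemal complex, had 0.44 and 0.29 (adjusted p = 0.824 and 0.989).

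Around CDKN2A, 16 of 27 genes of the cyclin-dependent kinase inhibitors and the RB and p53 pathways were tested. None was called by limma, with 3 at an unadjusted p under 0.05 in neurons and 2 in layers. CDKN2D, an inhibitor of the same family, had the opposite sign in both captures, at -0.41 in neurons and -0.40 in layers (adjusted p = 0.497 and 0.713). E2F1, a transcription factor held back by RB, had -0.80 in neurons (adjusted p = 0.312), and CDKN1B had 0.51 (adjusted p = 0.524). CDK4, a target of INK4A, had 0.04 in neurons and 0.06 in layers (adjusted p = 0.988 and 0.999).

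Around TENT5A, 8 of 15 terminal nucleotidyltransferases and poly(A) polymerases were tested and 0 called by limma, with 0 at an unadjusted p under 0.05. Its paralogs TENT5B and TENT5D fell below the signal filter, and TENT4A, another non-canonical polymerase, had 0.33 in neurons and 0.19 in layers (adjusted p = 0.767 and 0.989). Around DAPK1, 8 of 14 family members and partners were tested and 0 called by limma, with 0 at an unadjusted p under 0.05, and the kinases DAPK2, DAPK3 and STK17B fell below the filter. TSC2, a substrate of DAPK1, had -0.38 in neurons and 0.08 in layers (adjusted p = 0.692 and 0.999).

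Around CSRP2, 12 of 17 LIM-only proteins and partners were tested and 0 called by limma, with 2 at an unadjusted p under 0.05 in neurons and 1 in layers. CRIP3, a cysteine-rich LIM protein, had 1.01 in neurons (adjusted p = 0.0703) and 0.14 in layers, from mean signals of 8.38 and 33.1 in M and P neurons. With the replicate number as a block it was called (adjusted p = 0.0281). Its means in M layers and P layers were 10.6 and 12.6, so CRIP3 passed the signal filter only through the P neurons, the group in which it was high. CRIP2 had 0.58 in neurons and 0.68 in layers (adjusted p = 0.518 and 0.544). CSRP3, the muscle paralog, fell below the filter.

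Several of the 6 genes are better known from other cells than neurons, so markers of those cells were set beside them. Of 81 markers in 10 lists, 61 were measured and 52 tested. In M against P, 0 of the 52 were called by limma in neurons and 0 in layers, with 7 and 5 at an unadjusted p under 0.05, beside the 784 and 614 of all 10030. Most of the endothelial sums came from SLC2A1, with means of 408 in M neurons and 413 in P neurons. The summed signal of the endothelial list was 603 to 807 in M neurons and 665 to 870 in P neurons, and 974 to 1504 in M layers and 1098 to 1322 in P layers. That of the microglia and macrophage list was 2204 to 2935, 2369 to 2702, 2025 to 2597 and 2047 to 2235 in the same order, mostly from CD68 and MRC1 (means of 1357 and 999 in M neurons). P2RY12, a microglial receptor, added little to the sums, with means of 43.5 in M neurons, 36.7 in P neurons, 82.2 in M layers and 83.0 in P layers. The mural list, of smooth muscle and pericytes, summed to 210 to 238, 206 to 259, 207 to 335 and 225 to 266. All of these overlapped between M and P.

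The adipocyte list had 3 of 6 genes measured, and its sums, 643 to 865, 687 to 867, 521 to 730 and 594 to 616, overlapped as well. They came mostly from a single ADIPOQ probe set at a mean of 654 in M neurons and 649 in P neurons, with a difference of -0.01 (adjusted p = 0.997). MAS5 gives every probe set a positive value, so no marker stood at 0. Of the measured markers, 1 each of the mural, fibroblast and proliferating cell lists was under the array median on all 12 arrays. Most of the proliferating cell sums came from PCNA and CCNB1, with means of 372 and 217 in M neurons and 472 and 226 in P neurons. MKI67 was dim, at 12.7 and 18.2. The proliferating cell list summed to 612 to 905 in M neurons and 916 to 952 in P neurons, without overlap, and to 637 to 758 and 578 to 751 in layers, with overlap. None of its 6 tested genes was called, and CCNA2, a cyclin of dividing cells, had 0.51 in neurons (adjusted p = 0.542).

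The astrocyte list ran from 5105 to 6040 in M layers and from 3694 to 4359 in P layers, without overlap, and from 2030 to 3805 and 2369 to 2430 in neurons. GFAP, the astrocytic intermediate filament, had -1.03 in layers (adjusted p = 0.0674), and was called with the replicate number as a block (-1.03 ± 0.17, adjusted p = 0.00164). The P layers, where the 6 genes had the higher means, thus had the lower astrocyte sums, and the part of astrocytes in those means was not tested. The interneuron list, with 2 of 3 genes measured, also stood apart in layers, at 815 to 1140 in M and 477 to 577 in P. Its sums came mostly from GAD1, at -0.96 in layers (adjusted p = 0.432). GAD2, with layer means of 25.8 in M and 27.6 in P, had 0.05 (adjusted p = 0.999). The sums of this list overlapped in neurons. The fibroblast, oligodendrocyte and neuron lists overlapped between M and P in both captures.

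The likeness of each gene to all others was measured as Pearson's r of log2(signal + 16) over the 12 arrays, among 9348 named genes. The arrays come from 4 groups, so r takes in the differences between groups and is given as a description. FABP4 was most like PHLDA2 (r = 0.96), REC8 (0.94) and TRIM58 (0.93), and most opposite to ITGA8, an integrin subunit (-0.92). REC8 was most like MYB, a transcription factor of progenitor cells (0.96), CNTNAP4, a contactin-associated adhesion protein (0.95), and TRIM58 (0.95), and most opposite to EBF1 (-0.95). CDKN2A was most like LOXL3 (0.93), YBX3 (0.91) and REC8 (0.91), with NDST4 at -0.93. TENT5A was most like LRFN3 (0.89), GABRB1, a subunit of the GABA-A receptor (0.89), and FABP4 (0.88), with ZNF521 at -0.91. LRFN3 was dim, with means of 8.41, 17.9, 7.55 and 17.2 in M neurons, P neurons, M layers and P layers. It passed the signal filter only through the parvocellular groups. For these 4 genes the likest genes had higher means in both parvocellular groups than in the magnocellular ones. CNTNAP4, for example, had mean signals of 718, 1682, 650 and 1340 in M neurons, P neurons, M layers and P layers.

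DAPK1 and CSRP2 were each other's close match. DAPK1 was most like CSRP2 (r = 0.94), ITM2A (0.91) and DESI2 (0.90), with IPO4 at -0.88. CSRP2 was most like ITM2A (0.96), DAPK1 (0.94) and CCNI (0.93), with STK11IP at -0.88. ITM2A, a membrane protein, had mean signals of 338, 719, 614 and 862 in M neurons, P neurons, M layers and P layers, lowest in M neurons as DAPK1 and CSRP2 were. Among the 6 genes r ran from 0.583 for DAPK1 with TENT5A to 0.944 for FABP4 with REC8. With each group's mean removed, r was 0.744 for DAPK1 with CSRP2 and 0.639 for FABP4 with REC8, whereas TENT5A gave -0.186 with REC8 and -0.16 with CDKN2A. The pairs share arrays and any scaling of them.

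**Figure D4:**
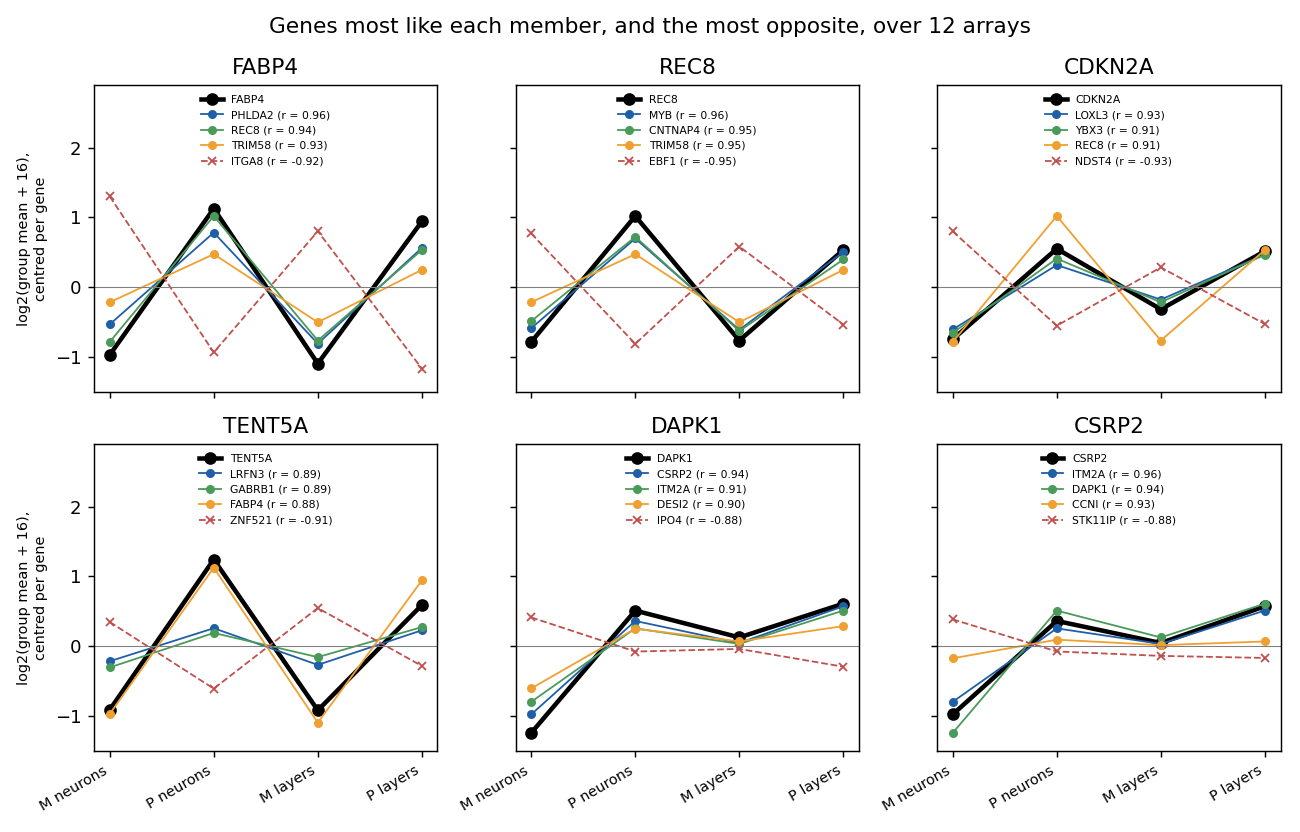
Log2 of the group mean plus 16, centred per gene, in the 4 groups, for each of the 6 genes (black), the 3 genes with the highest r over 12 arrays (solid) and the one with the lowest (dashed). The means of FABP4, REC8, CDKN2A and TENT5A alternate with layer type, whereas DAPK1 and CSRP2 have their lowest mean in M neurons and an intermediate one in M layers.

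The human arrays give a second view of magnocellular levels. Their titles name the magnocellular layer, their source and protocol name neuronal cell bodies, and their instrument records carry the code of the M neurons, so the capture is not settled. The array medians were 11.2 and 9.76. CSRP2 read 102 and 67.4 on arrays 1 and 2, and its other probe set read 93.8 and 70.3. DAPK1 read 28.9 and 30.4, CDKN2A 44.6 and 18.6, and TENT5A 13.7 and 17.2, all above the medians on both arrays. FABP4 was under the median on both, at 1.67 and 2.40, and REC8 read 20.2 on one array and 2.39 on the other. FABP4 was under the median on both human arrays and on 5 of the 6 magnocellular rhesus arrays. CDKN2A was under the median in M neurons on the rhesus arrays and above it here, through a different probe set. Its other human probe sets, at 11.9 and 8.70 and at 1.51 and 1.33, were not above the median on both arrays. With 2 arrays of M and none of P, no comparison between layer types can be made on this design.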

How the data were processed

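RNA of 12 captures was measured on the Rhesus Macaque Genome Array and of 2 on a human array. Intensity values were deposited as linear MAS5 signals, 1 per probe set, per the submitters' processing notes, which give no version. Its 2% trimmed mean ran from 60.1 to 90.7 over the rhesus arrays, so no common scaling shows, and detection calls were not used here. Rhesus and human probes can mismatch vervet RNA, so levels of different probe sets are not compared. The GEO platform annotation, which can be old, gave the symbols, and no genome was used.

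limma 3.58.1 in R 4.3.3 was run on log2(signal + 16) with 1 model of 4 group means over the 12 rhesus arrays (8 residual and 11.7 prior degrees of freedom, variance trend). It took in the 26383 probe sets whose mean reached the median of 52766. P-values are two-sided, adjusted by Benjamini-Hochberg over those probe sets and called at under 0.05. A floor fold raises each magnocellular array to its own median. The code was tested on simulated data. The number of arrays limits the precision, and the p-values measure the spread between the 3 captures of a group.

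The 6 genes and all lists were chosen with earlier results of these data known. Related genes are named if called or among the 2 smallest p of their list, and close family members and partners were added after their values were seen. Likeness names the 3 highest and 1 lowest r, leaving out symbols that start with LOC. Arrays of the same number deviated together from the group means of M and P (correlations of at least 0.145 over probe sets, with 3 pairs in each capture). The pairing comes from the data, since the labels state none, and a fit with the number as a block was run. Other pseudocounts, no filter, quantile and trimmed-mean scaling, no variance trend, the station as a block or held fixed, only the groups compared, each array left out and other probe sets were tried.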

Additional observations from a re-analysis of the deposited data

How the results depend on the processing

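P minus M kept its direction for the 6 genes in both captures under the 11 other settings tried and with each array left out. Neurons minus layers kept its sign under 9 and with each array left out. The bound for CDKN2A fell to 0.87 in neurons and 0.94 in layers with the floor at the 75th percentile of each array, at which no fold can be given. Neurons minus layers stood at -0.61 for CSRP2 without a signal filter, where 1 of the 6 genes was called, and at -0.66 for CSRP2 and -0.93 for DAPK1 with the station as a block, where 0 were called by limma. Leaving out 1 array gave -0.76 to -0.47 for CSRP2 and 1 to 2 genes called. Quantile scaling and a common trimmed mean moved the median of all genes in this comparison from 0.17 to 0.01 and -0.03. The share of called genes that were higher in neurons went from 82.3% to 51.6% and 48.2%, and DAPK1 and CSRP2 were called under both (-0.95 and -0.90, and -0.94 and -0.87).

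With the replicate block, 2 related genes were called in neurons (FABP3 and CRIP3) and 1 marker in layers (GFAP). The block raised the named genes called between M and P neurons from 34 to 86, and between M and P layers from 14 to 36. In the related genes in neurons, 2 were called with a pseudocount of 64 or no variance trend, 0 with the station as a block, within station 3 or with only the groups compared, and 0 to 2 without 1 array. In the markers, quantile and trimmed-mean scaling each called 1 in neurons (UGT8), and 2 and 1 in layers (NEFH and TCF7L2, and TCF7L2). With only the groups compared 1 was called in layers (GFAP), and 0 to 2 without 1 array. GFAP was called without M neuron array 1, and GFAP and GAD1 without M neuron array 2. Named genes called numbered 69 in neurons and 30 in layers with quantile scaling, 65 and 28 with the trimmed mean, 4 and 6 with the station as a block, and 22 and 5 without a filter. They numbered 17 within station 3, 8 in layers without the variance trend and, in neurons, 11 without P neuron array 2 and 21 without M neuron array 2. In layers they numbered 5 without P layer array 2 or 3, 6 without M layer array 3 and 7 without P layer array 1. In neurons against layers 283 were called with the station as a block, down from 2956. By probe sets other than the brightest, 1 gene (CSRP2) was above the median on both human arrays, down from 4. With Spearman's rho 8 of the 18 likest genes remained. Neurons minus layers was not run within 1 station or with only the groups compared, since no station holds all 4 groups and all groups enter it.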
